A study of Mus musculus with 6 samples.

Results

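Transcripts of 9 genes of heme synthesis and iron handling were followed in the inguinal white adipose tissue (iWAT) of mice. The genes were taken by symbol from the deposited expression table, which has 22564 rows. Alas1, Alad, Uros, Urod, Cpox, Ppox and Fech encode 7 enzymes of the heme pathway, Tfrc encodes the receptor that brings transferrin-bound iron into cells, and Fth1 encodes the heavy chain of the iron store ferritin. Each symbol matched 1 row, and all 9 passed the filter on low values. No threshold on their values was used to choose them, but the choice was made with earlier results of these data known.

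The tissue came from C57BL/6 mice kept for 7 days at 4 °C (cold, 3 samples) or at 30 °C (thermoneutral, 3 samples). The labels give the strain in this form and the methods of the study as C57BL/6J, young adult males. No gene was altered in either group. The labels give the source as adipocytes but the tissue as the whole fat pad, which holds blood, vessel, immune and stromal cells as well, and 8 adipocyte markers made up 2.44% to 4.08% of scaled counts in the 6 libraries.

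Heme is an iron-containing ring that electron-carrying cytochromes, catalase and globins need to work. Its synthesis starts in the mitochondrion with aminolevulinate synthase, passes through the cytosol, and returns to the mitochondrion, where ferrochelatase inserts iron. Cells take up iron through the transferrin receptor and store it in ferritin, and the mRNAs of both proteins carry iron-responsive elements (IREs), stem-loops to which iron regulatory proteins bind when iron is scarce. That binding protects the transferrin receptor mRNA from decay and blocks translation of ferritin mRNA. iWAT is a subcutaneous depot in which mitochondria-rich beige adipocytes appear in the cold.

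The IRE stem-loops of the members are shown because they are the best known sequence feature that sets Tfrc and Fth1 apart from the heme enzymes. The search asked for a C, then 5 bases, the loop CAGTGN and 5 more bases that pair with the earlier 5 (G with T allowed). It was run on the sense strand of the untranslated regions (UTRs) of GENCODE M21 protein-coding transcripts, build GRCm38, with no other motif searched. Capitals mark the loop, and the sites are written 5′ to 3′ as DNA. The Tfrc sites lie in the 3′ UTR on the plus strand at chr16:32631219-32631247, chr16:32631598-32631626, chr16:32631663-32631691 and chr16:32631710-32631738, in the order printed. The Fth1 site lies in the 5′ UTR on the plus strand at chr19:9982732-9982760, and that of Ftl1, the ferritin light chain, in the 5′ UTR on the minus strand at chr7:45459779-45459807.
Tfrc site 1: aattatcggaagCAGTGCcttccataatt
Tfrc site 2: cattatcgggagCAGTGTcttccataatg
Tfrc site 3: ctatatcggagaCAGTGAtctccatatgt
Tfrc site 4: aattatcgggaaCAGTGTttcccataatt
Fth1: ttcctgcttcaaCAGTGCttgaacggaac
Ftl1: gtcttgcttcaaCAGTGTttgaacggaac

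Of 21022 genes with an annotated 3′ UTR, 129 (0.614%) held at least 1 match there, and Tfrc held 4. Of 20899 genes with a 5′ UTR, 31 (0.148%) held a match, Fth1 and Ftl1 among them. In the pathway genes described further on, the 5′ UTRs of Alas2 and Slc40a1 and the 3′ UTR of Bola3 also matched. The 7 heme enzymes held none. Stem-loops that depart from the pattern asked for are not counted, for Tfrc as for the other genes. A match is a description of letters, and these data measure RNA amount, not binding.

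The values are counts that had been scaled by 1 size factor per library before deposit, called scaled counts here, and FPKM (fragments normalized to transcript length and library size), used wherever levels of different genes are set side by side. Scaled counts summed to between 17434977 and 17588754 in the cold libraries and between 19276924 and 19603526 in the thermoneutral ones. An estimated 15261710 to 16936692 fragments lay behind the cold libraries and 18893388 to 23635792 behind the thermoneutral ones. Every cold library was thus shallower than every thermoneutral one. The groups were compared with limma on log2(scaled count + 1) over 11650 genes, fold changes are on that scale, and a call needs an adjusted p under 0.05. On this scale the median gene had a log2 fold change of -0.54, with 727 genes higher (6.24%) and 4097 lower (35.2%). After each library was centred on its own median, the median was -0.01, with 1200 higher (10.3%) and 623 lower (5.35%), so centred values are given for the genes whose call differs between the scales. Thermoneutral replicate 1 and cold replicate 2 stood apart from their groups. Summed epithelial markers reached 32041 scaled counts in the former against 19.7 to 74.6 in the other 5, and skeletal muscle markers took 1.46% of scaled counts in the latter against at most 0.0621% elsewhere. The labels do not say whether samples came from separate animals, so p-values measure the spread between these samples only.

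Of the 9 members, 0 were called higher in cold, 2 (Ppox and Cpox) were called lower, and 7 were not called. At an unadjusted p under 0.05 the counts were the same, 0 higher and 2 lower. Among all genes tested, 6.24% were called higher and 35.2% lower, 41.4% in either direction. Ppox and Cpox were also the 2 members whose groups did not overlap, both with cold below, as for 52.1% of all genes, where 9.09% had cold above and 61.2% did not overlap in either direction. The median log2 fold change of the 7 heme enzymes was 0.04, beside -0.54 for all genes, and 0.57 beside -0.01 after centring. By their log2 fold change Tfrc stood above 95.7% of the genes tested, Alas1 above 86.4%, Urod above 86.4%, Fech above 85.8%, Fth1 above 83.9%, Uros above 81.4%, Alad above 74.4%, Ppox above 33.5% and Cpox above 7.79%.

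The members that were called depended on the scaling and on the libraries used. After centring 1 was higher, Fech, and 0 lower, beside 10.3% and 5.35% of all genes. With quantile normalization 0 were called in either direction, beside 9.3% and 6.04%, and with TMM scaling 1 was higher, Fech, and 0 lower, beside 9.75% and 6.21%. Without thermoneutral replicate 1, Tfrc was higher and Ppox lower, beside 8.01% and 44.1% of all genes, and likewise when cold replicate 2 was also left out, beside 6.9% and 41.5%. With centring and without thermoneutral replicate 1, 3 were higher, Tfrc, Fech and Uros, and 0 lower, beside 14.5% and 10.7%.

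**Figure D1:**
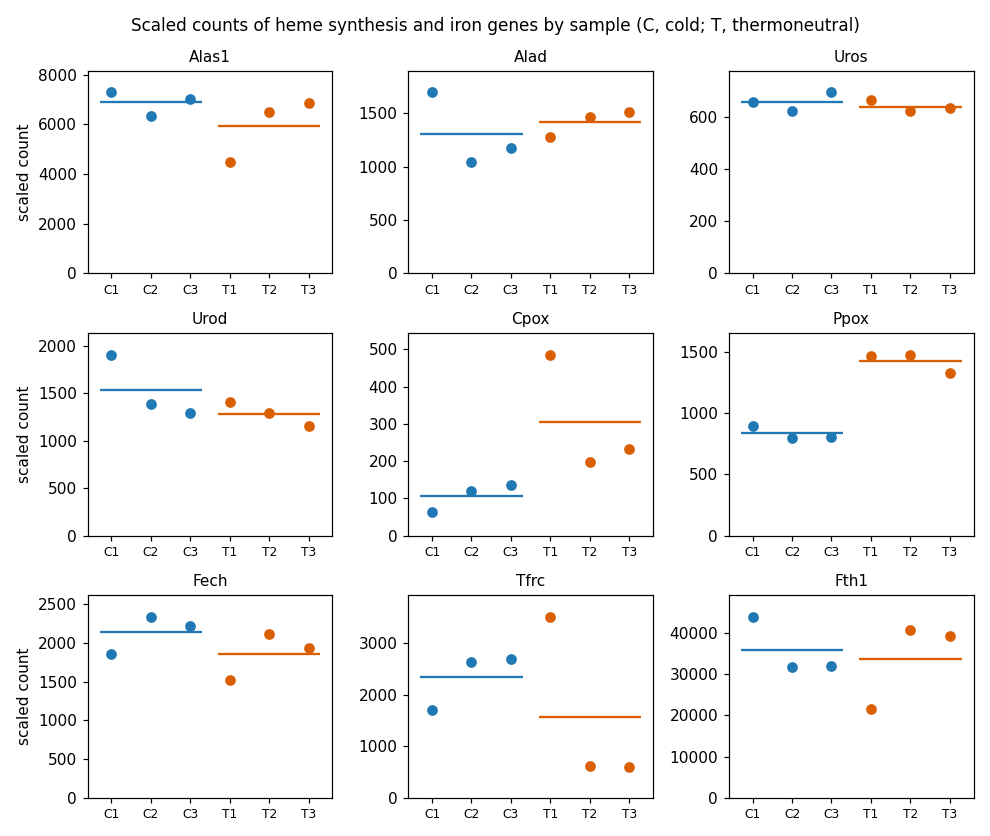
Scaled counts of the 9 genes in each library (C1 to C3, cold; T1 to T3, thermoneutral), with points for libraries and lines for group means, on axes that start at 0. Ppox and Cpox separate the groups, and in the Tfrc panel thermoneutral replicate 1 stands at 3518 above all other libraries.

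Per transcript length, the members kept a wide and largely fixed order. Fth1 had the highest FPKM in all 6 libraries, 1363 to 2770, and Alas1 came next in all 6, at 111 to 183. Cpox was lowest in all 6, at 0.921 to 7.13. Between them, Alad (43.5 to 70.9 FPKM) and Urod (44.5 to 70.9 FPKM) exchanged places from library to library and their ranges overlapped. The range of Ppox (16.5 to 36.6 FPKM) overlapped that of Fech (24.6 to 37.9 FPKM) and that of Uros (18.3 to 21.1 FPKM), while Fech was above Uros in every library. Tfrc moved most in rank, being above Ppox and Uros in the cold libraries and in thermoneutral replicate 1 and below both in thermoneutral replicates 2 and 3. Alas1 alone made up 35.4% to 50.1% of the summed FPKM of the 7 heme enzymes.

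**Figure D2:**
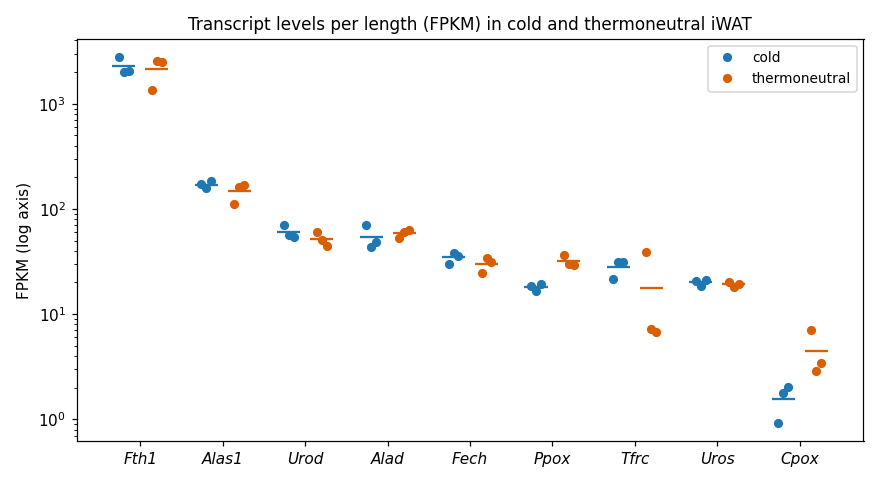
FPKM of each gene on a log axis, with points for libraries and lines for group means (blue, cold; orange, thermoneutral). Fth1 is highest and Cpox lowest in all 6 libraries, and the Tfrc points of thermoneutral replicates 2 and 3 lie at 7.30 and 6.71 against 39.0 in thermoneutral replicate 1.

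Alas1 makes the housekeeping form of aminolevulinate synthase, the rate-setting step of heme synthesis outside red blood cells. It lies on the minus strand at chr9:106233455-106248907. Its scaled counts were 7282, 6355 and 7023 in cold and 4468, 6487 and 6858 in thermoneutral samples. The groups overlapped, and thermoneutral replicate 1 was the lowest of the 6. The log2 fold change was 0.24 (SE 0.21, 95% interval -0.27 to 0.74, limma adjusted p = 0.38), and 0.04 without thermoneutral replicate 1. After centring it was 0.77 (interval 0.25 to 1.29, limma adjusted p = 0.058). The antisense gene 4930500F10Rik shares 465 exon bases with Alas1, and since the strand of the counting is not stated, reads of the pair cannot be told apart.

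The members that act in the cytosol, Alad, Uros and Urod, were not called on the deposited scale. Alad, which joins aminolevulinate molecules into the first ring (chr4:62509169-62519918, minus strand), had scaled counts of 1695, 1041 and 1177 in cold and 1281, 1470 and 1517 in thermoneutral samples. The highest and the lowest library were both cold ones. Its log2 fold change was -0.15 (SE 0.22, 95% interval -0.69 to 0.38, limma adjusted p = 0.59), and the sign turned after centring (0.38, limma adjusted p = 0.36). Uros, which closes the ring system, had the narrowest range of the members, with scaled counts of 658, 625 and 696 in cold and 665, 623 and 636 in thermoneutral samples. No library stood apart, and the log2 fold change of Uros was 0.04 (SE 0.15, 95% interval -0.31 to 0.39, limma adjusted p = 0.83). After centring it was 0.57 (limma adjusted p = 0.062), and 0.62 (limma adjusted p = 0.041) when thermoneutral replicate 1 was also left out. The file places Uros at chr7:133686243-133881532 on the minus strand, past the end of the gene in GENCODE at 133710072.

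Urod, which trims the side chains of the ring (chr4:116989965-116994413, minus strand), had scaled counts of 1904, 1390 and 1294 in cold and 1407, 1291 and 1154 in thermoneutral samples. Cold replicate 1 was the highest, and the other cold libraries lay within the thermoneutral range. The log2 fold change was 0.24 (SE 0.20, 95% interval -0.25 to 0.72, limma adjusted p = 0.36), and 0.77 after centring (limma adjusted p = 0.074).

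Cpox, the next enzyme in order, which works in the space between the mitochondrial membranes (chr16:58670208-58680391, plus strand), was the least abundant member. Its scaled counts were 62.8, 120 and 137 in cold and 486, 196 and 232 in thermoneutral samples, with no overlap. Thermoneutral replicate 1 was 2.27-fold above the mean of the other thermoneutral libraries. Cpox fell by 1.46 on the log2 scale (SE 0.43, 95% interval -2.50 to -0.42, limma adjusted p = 0.037). The call was lost under centring (-0.93, limma adjusted p = 0.19), under quantile normalization (-0.83) and TMM scaling (-0.99), with the replicate block (limma adjusted p = 0.094), and when any 1 of the 6 libraries was left out (limma adjusted p from 0.052 to 0.096). Without thermoneutral replicate 1 the log2 fold change of Cpox was -1.07. Cpox shares 204 exon bases with Gpr15 on the other strand, which was listed at 0 in 5 of the 6 libraries.

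Ppox, which oxidizes protoporphyrinogen in the inner mitochondrial membrane (chr1:171270328-171281186 in the file, minus strand), had the smallest adjusted p of the 9 members. Its scaled counts were 898, 801 and 809 in cold, and 1469, 1479 and 1331 in thermoneutral samples. The lowest thermoneutral library was above the highest cold one, and the spread within each group was small (836 ± 53.7 and 1426 ± 82.6, SD, n = 3 each). Ppox fell by 0.77 on the log2 scale (SE 0.15, 95% interval -1.13 to -0.41, limma adjusted p = 0.013), a level 1.71-fold higher in thermoneutral samples. The value is near that of the median gene, and after centring it was -0.24 (interval -0.65 to 0.18, limma adjusted p = 0.39), with -0.37 under quantile normalization and -0.29 under TMM scaling, none called. On the deposited scale the call was also lost without cold replicate 3 (limma adjusted p = 0.051), thermoneutral replicate 2 (0.060) or thermoneutral replicate 3 (0.052), at log2 fold changes of -0.75, -0.74 and -0.82. Ppox shares 791 exon bases with B4galt3 on the other strand, a galactosyltransferase gene with scaled counts of 353, 381 and 329 in cold and 652, 625 and 537 in thermoneutral samples (log2 fold change -0.77, limma adjusted p = 0.016, and -0.23 after centring, not called). Reads of the pair cannot be told apart here.

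Fech, ferrochelatase, which puts iron into the ring to complete heme (chr18:64456550-64489066, minus strand), had scaled counts of 1855, 2338 and 2213 in cold and 1520, 2110 and 1932 in thermoneutral samples. The groups overlapped, with cold replicate 1 below thermoneutral replicates 2 and 3. The log2 fold change was 0.21 (SE 0.19, 95% interval -0.26 to 0.68, limma adjusted p = 0.39). After centring Fech was called higher (0.74, interval 0.33 to 1.16, limma adjusted p = 0.034), the only member so called there, and likewise with TMM scaling (0.69, limma adjusted p = 0.041) but not with quantile normalization (0.52, limma adjusted p = 0.12).

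Ratios between members cancel the scaling factor of a library. Of 36 pairs, 14 had log2 ratios that did not overlap between cold and thermoneutral samples, with 6 of the 14 involving Ppox, 7 involving Cpox, and 1, Alad to Urod, involving neither. That is 38.9% of the member pairs, beside 43.1% of all pairs of tested genes, 39.4% of pairs of Ppox with any tested gene and 43.3% of those of Cpox, so the share of member pairs was near that of all genes. The ratio of Ppox to Uros FPKM was 0.907, 0.888 and 0.922 in cold and 1.80, 1.63 and 1.52 in thermoneutral samples. The ratio of Ppox to Alas1 was 0.108, 0.105 and 0.107 in cold and 0.331, 0.186 and 0.173 in thermoneutral samples. Both ratios were thus lower in every cold library. Uros had ratios without overlap in 60.3% of its pairs with any tested gene and Alas1 in 69.5%, so such a separation was common for these partners. Alas1 to Urod (difference of 0.0006 in mean log2 ratio) and Alas1 to Fech (0.03) overlapped. With 3 against 3 samples the smallest exact permutation p is 0.1, so no single ratio could pass 0.05.

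**Figure D3:**
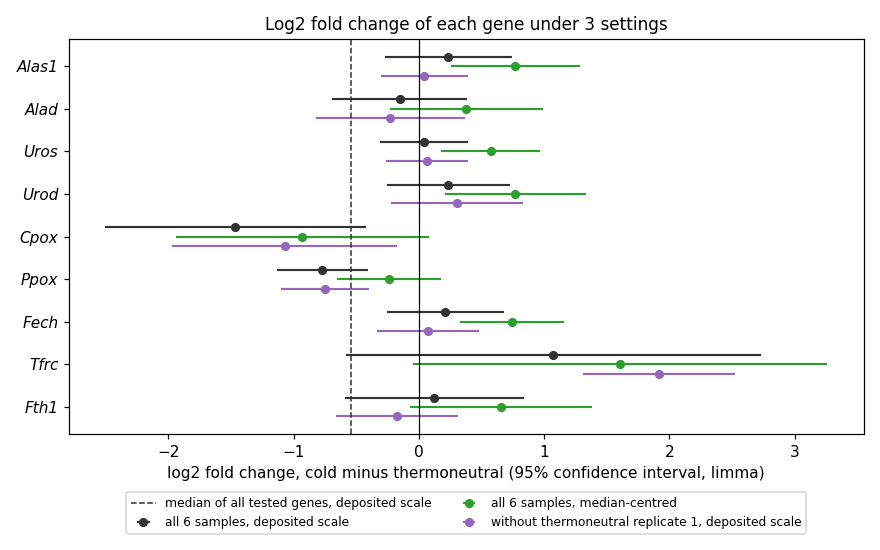
Log2 fold change of each gene, cold minus thermoneutral, with 95% limma intervals, for all 6 libraries on the deposited scale (black), after median centring (green) and without thermoneutral replicate 1 (purple), beside the median of all genes at -0.54 (dashed). The Ppox interval lies below 0 on the deposited scale and spans 0 after centring, and the Tfrc interval narrows from -0.58 to 2.73 to 1.31 to 2.52 without thermoneutral replicate 1.

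Tfrc, the carrier of the 4 stem-loops printed before the values (chr16:32608920-32632794, plus strand), was the member with the largest SE of its fold change. Its scaled counts were 1709, 2647 and 2698 in cold and 3518, 623 and 596 in thermoneutral samples. All 3 cold libraries were above thermoneutral replicates 2 and 3, and thermoneutral replicate 1 was above all of them. Over all 6 libraries the log2 fold change was 1.07 (SE 0.69, 95% interval -0.58 to 2.73, limma adjusted p = 0.23), not called, and 1.61 after centring (limma adjusted p = 0.17). Without thermoneutral replicate 1 Tfrc was called higher in cold, by 1.92 on the log2 scale (interval 1.31 to 2.52, limma adjusted p = 0.0041), where 8.01% of all genes were called higher. When cold replicate 2 was left out as well the value was 1.81 (limma adjusted p = 0.011). With centring and without thermoneutral replicate 1 it was 2.47 (limma adjusted p = 0.0016).

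In thermoneutral replicate 1 Tfrc was 5.76-fold above the mean of the other thermoneutral libraries, a deviation that 1.67% of genes reached or passed. The same library had the highest value of all 6 libraries for 6 of 6 epithelial markers, among them the basal keratin Krt14 at 22333 scaled counts against 3.43 to 38.2 elsewhere. In the other libraries Krt5 was at 0 in 3, Krt8 in 2, and Krt18 in cold replicate 3. It was also highest for 6 of 6 markers of proliferating cells, which summed to 2237 scaled counts there, to 953 to 1393 in cold, and to 480 and 576 in thermoneutral replicates 2 and 3. The proliferation markers thus followed the same order as Tfrc, cold above those 2 libraries, and 0 of the 5 tested were called over all 6 libraries. Without thermoneutral replicate 1, the setting in which Tfrc was called, 4 of these 5 were called higher, beside 8.01% of all genes. They were Top2a, Cdk1, Birc5 and Ccna2, at log2 fold changes of 0.93 to 1.59. With centring as well 5 of 5 were called higher, beside 14.5% of all genes. Dividing cells take up much iron through this receptor, and the part of these cells in the Tfrc values was not tested. In bulk tissue, fewer cells of a type and less RNA per cell cannot be told apart.

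**Figure D4:**
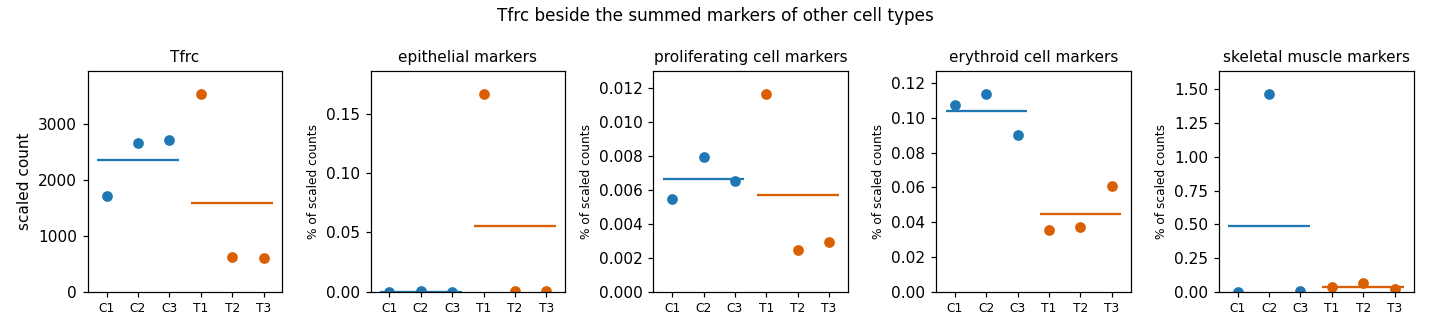
Scaled counts of Tfrc beside summed markers of epithelial, proliferating, erythroid and skeletal muscle cells as a percent of each library's scaled counts, with points for libraries and lines for group means. Thermoneutral replicate 1 is highest for Tfrc and for the epithelial and proliferation markers, and cold replicate 2 holds 1.46% skeletal muscle markers.

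Genes with profiles closest to that of Tfrc over the 6 libraries, by the root mean square difference of mean-centred log2 values, were Dusp4, a phosphatase that acts on MAP kinases (0.17), Kif11, a motor protein of the mitotic spindle (0.21), and Mpzl2, a cell adhesion protein (0.24). Kif11 had scaled counts of 74.3, 158 and 112 in cold and 184, 37.7 and 32.3 in thermoneutral samples. For Alas1 the closest were Plin3 (0.057), Bak1 (0.062) and Epor (0.064), for Fech Zfp386 (0.034), Slc26a6 (0.038) and Csnk2a1 (0.055), and for Fth1 Echdc3 (0.036), Egfl7 (0.054) and Nr1h3 (0.062). These are descriptions over libraries that share the features of thermoneutral replicate 1.

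Fth1, which carries the ferroxidase activity of ferritin (chr19:9980600-9985111, plus strand), was the most abundant member. Its scaled counts were 43891, 31621 and 31890 in cold and 21450, 40606 and 39222 in thermoneutral samples. The extremes were cold replicate 1 at the top and thermoneutral replicate 1 at the bottom, and the other 4 libraries had the cold pair below the thermoneutral pair. The log2 fold change was 0.12 (SE 0.30, 95% interval -0.59 to 0.84, limma adjusted p = 0.74). The sign turned without cold replicate 1 (-0.03) and without thermoneutral replicate 1 (-0.17). Ftl1, the light chain, gave scaled counts of 39515, 25337 and 25869 in cold and 28369, 44307 and 47082 in thermoneutral samples. It was not called (-0.40 in log2 units, limma adjusted p = 0.27).

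The ratio of Fth1 to Tfrc FPKM, storage set against uptake, was 127, 64.8 and 64.3 in cold and 35.0, 352 and 369 in thermoneutral samples. Thermoneutral replicate 1 thus had the lowest ratio and the other thermoneutral libraries the highest ones, with cold between.

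Beyond the members, 7 lists of genes of the same pathways held 73 tested genes, of which 21 were called higher and 12 lower, beside 6.24% and 35.2% of all genes. The lists, too, were chosen with earlier results of these data known. Of 10 other genes of heme synthesis and its transport steps, 3 were called higher and 1 lower, with a median log2 fold change of -0.25. After centring 4 were higher and 0 lower, beside 10.3% and 5.35% of all genes. Tmem14c, which moves protoporphyrinogen into the mitochondrial matrix, had scaled counts of 4474, 3243 and 3238 in cold and 1595, 1456 and 1582 in thermoneutral samples and rose by 1.23 in log2 units (SE 0.19, limma adjusted p = 0.0081). Slc25a39, a carrier that brings glutathione into mitochondria, rose by 1.22 (SE 0.24, limma adjusted p = 0.013), a call lost without thermoneutral replicate 2 (1.10) or 3 (1.17), both at a limma adjusted p of 0.054. Slc25a38, which carries the glycine used by aminolevulinate synthase, had scaled counts of 284, 300.5 and 293 in cold and 570, 569 and 575 in thermoneutral samples, and it fell by 0.96 (SE 0.14, limma adjusted p = 0.0074), a call lost after centring (-0.43, limma adjusted p = 0.10).

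Alas2, the aminolevulinate synthase of red blood cell precursors, had scaled counts of 263, 351 and 265 in cold and 172, 125 and 208 in thermoneutral samples, with no overlap. Alas2 was called higher, by 0.81 in log2 units (SE 0.24, limma adjusted p = 0.038), a call lost in 8 of 18 alternative settings with the fold little changed. Among them were each library left out in turn except thermoneutral replicate 1, at log2 fold changes from 0.61 to 0.98 (limma adjusted p from 0.059 to 0.11). Alas2 is itself one of the erythroid markers, of which 5 of the 5 tested were called higher, beside 6.24% of all genes. The erythroid markers summed to 15875 to 19876 scaled counts in cold and 6885 to 11966 in thermoneutral samples. Slc4a1 was at 0 in 1 of the 6 libraries, and so was Klf1. The part of blood cells in the Alas2 value was not tested.

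Genes of heme breakdown and transport gave 2 called higher and 5 lower of 12, beside 6.24% and 35.2% of all genes. Their median of -0.51 was near that of all genes. Hpx, the plasma protein that binds free heme, rose by 2.31 (SE 0.24, limma adjusted p = 0.0036), from 19.4, 25.2 and 19.9 scaled counts in thermoneutral samples to 123, 135 and 80.0 in cold. Its FPKM was 2.71 to 4.57 in cold and 0.656 to 0.849 in thermoneutral samples. Hpx thus passed the filter on low values only through the cold group, where it was high, which limits its call. Hp, haptoglobin, which binds free hemoglobin, fell by 2.85 (SE 0.35, limma adjusted p = 0.0051), with scaled counts of 19671, 9380 and 12459 in cold and 68384, 97122 and 130691 in thermoneutral samples. Cd163, the receptor for the haptoglobin and hemoglobin complex, fell by 2.04 (SE 0.23, limma adjusted p = 0.0042), with scaled counts of 199, 244 and 182 in cold and 657, 896 and 1048 in thermoneutral samples. Cd163 is also a macrophage marker, and 9 of 11 macrophage markers were called lower, beside 35.2% of all genes (5 of 11 after centring, beside 5.35%). They summed to 6889 to 10833 scaled counts in cold and 18246 to 30224 in thermoneutral samples, with none of the 11 at 0 in any library. The part of macrophage number in the Cd163 value was not tested. Bach1, a heme-binding repressor of heme oxygenase transcription, fell by 1.20 (SE 0.22, limma adjusted p = 0.012), a call lost after centring (-0.66, limma adjusted p = 0.066). Hmox1, the inducible heme oxygenase, was not called (-0.56, limma adjusted p = 0.069).

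Genes of heme attachment and heme proteins had 6 of 9 called higher and none lower, beside 6.24% and 35.2% of all genes. Their median log2 fold change was 1.01, and after centring 7 of 9 were called higher, beside 10.3% of all genes. Cycs, cytochrome c, had scaled counts of 26591, 23672 and 23721 in cold and 4558, 4604 and 4320 in thermoneutral samples, and it rose by 2.45 (SE 0.15, limma adjusted p = 0.00084). Sdhd, a heme-anchoring subunit of succinate dehydrogenase, rose by 1.73 (SE 0.18, limma adjusted p = 0.0033), and Cyc1, cytochrome c1 of complex III, by 1.69 (SE 0.19, limma adjusted p = 0.0042). Cox10, which makes heme o, the precursor of heme a in cytochrome c oxidase, rose by 1.38 (SE 0.15, limma adjusted p = 0.0038). All 4 separated the groups without overlap and kept their calls in all 18 alternative settings run. Cox15, the enzyme after Cox10, was not called (-0.02, limma adjusted p = 0.94). Thermogenic adipocyte markers moved with these genes, with 7 of 8 called higher, beside 6.24% of all genes. Their sums were 156003 to 211510 scaled counts in cold against 7644 to 11372 in thermoneutral samples.

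Iron uptake, export and import genes gave 2 called higher and 3 lower of 14 tested, beside 6.24% and 35.2% of all genes, with a median of -0.72. After centring 3 were higher and 2 lower, beside 10.3% and 5.35%. Heph, a copper enzyme that oxidizes exported iron, fell by 2.44 (SE 0.21, limma adjusted p = 0.0019), with scaled counts of 407, 528 and 590 in cold and 2334, 2896 and 3022 in thermoneutral samples. Steap4, a metalloreductase, fell by 1.86 (SE 0.33, limma adjusted p = 0.010), and Trf, transferrin itself, by 1.33 (SE 0.25, limma adjusted p = 0.012), with scaled counts of 26874, 19174 and 24760 in cold and 43015, 66528 and 70243 in thermoneutral samples. The Trf call was lost after centring (-0.79, limma adjusted p = 0.093) and without thermoneutral replicate 2 (-1.23) or 3 (-1.19), both at a limma adjusted p of 0.051. Preadipocyte and fibroblast markers moved with these falls, with 9 of 10 called lower, beside 35.2% of all genes (7 of 10 after centring, beside 5.35%). These markers summed to 31312 to 34429 scaled counts in cold and 74240 to 157344 in thermoneutral samples, with none at 0. Their part in the values was not tested. Tfr2, the second transferrin receptor, had scaled counts of 147, 159 and 155 in cold and 35.7, 71.6 and 70.5 in thermoneutral samples and rose by 1.43 (SE 0.29, limma adjusted p = 0.014). Slc40a1, ferroportin, the cellular iron exporter, was called higher (0.76, limma adjusted p = 0.045), but not without cold replicate 2 (limma adjusted p = 0.11) or thermoneutral replicate 1 (limma adjusted p = 0.066). Without thermoneutral replicate 1, 1 of the 14 was called higher and 5 lower, beside 8.01% and 44.1% of all genes.

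Of 4 tested genes of iron storage and chaperones, with a median of -0.49, 1 was called lower, beside 35.2% of all genes. The gene called was Pcbp1, an iron chaperone that loads ferritin, at -0.59 (SE 0.15, limma adjusted p = 0.023) and -0.05 after centring. Its call was also lost when any 1 of cold replicates 2 and 3 and thermoneutral replicates 2 and 3 was left out (-0.57 to -0.64). Of 7 tested genes of iron sensing and the hepcidin axis, 1 was called higher and 2 lower, beside 6.24% and 35.2% of all genes. Without thermoneutral replicate 1 the counts were 1 higher and 5 lower, beside 8.01% and 44.1%. Neo1, neogenin, a receptor that aids hepcidin signaling in liver, fell by 1.20 (SE 0.19, limma adjusted p = 0.0084). Aco1, whose protein is the cytosolic aconitase and iron regulatory protein, had scaled counts of 5100, 5255 and 5838 in cold and 10660, 7107 and 8328 in thermoneutral samples and fell by 0.67 (SE 0.20, limma adjusted p = 0.037), with -0.14 after centring and no call when any library but thermoneutral replicate 1 was left out (-0.63 to -0.81). Hamp, hepcidin, was the gene called higher (limma adjusted p = 0.017), at 14.9, 7.38 and 5.19 scaled counts in cold and 0, 0 and 2.49 in thermoneutral samples, too few for a fold. As thermoneutral replicates 1 and 2 were at 0, Hamp passed the filter on low values only because of its cold libraries, which limits its call. Its call was lost without cold replicate 1 (limma adjusted p = 0.051) or thermoneutral replicate 2 (limma adjusted p = 0.059).

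Iron-sulfur cluster assembly genes, which draw on the same mitochondrial iron, gave 7 called higher and 0 lower of 17, beside 6.24% and 35.2% of all genes. Their median was 0.44, and after centring 10 were higher and 0 lower, beside 10.3% and 5.35% of all genes. Hspa9, the mitochondrial chaperone of cluster transfer, rose by 1.19 (SE 0.15, limma adjusted p = 0.0056), and Bola3, which aids late cluster delivery, by 1.61 (SE 0.25, limma adjusted p = 0.0082). Bola3 had scaled counts of 3977, 2976 and 3076 in cold and 789, 1302 and 1242 in thermoneutral samples. Isca2 rose by 1.00 (SE 0.22, limma adjusted p = 0.016) and Isca1 by 0.69 (SE 0.15, limma adjusted p = 0.017), both scaffold or carrier proteins for late clusters. The Isca2 call was lost without thermoneutral replicate 3 (1.00, limma adjusted p = 0.061), and the Isca1 call without cold replicate 3 (0.63), thermoneutral replicate 2 (0.72) or thermoneutral replicate 3 (0.70), at limma adjusted p from 0.064 to 0.067. Nfs1, the desulfurase that supplies the sulfur, was not called (0.06, limma adjusted p = 0.73).

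**Figure D5:**
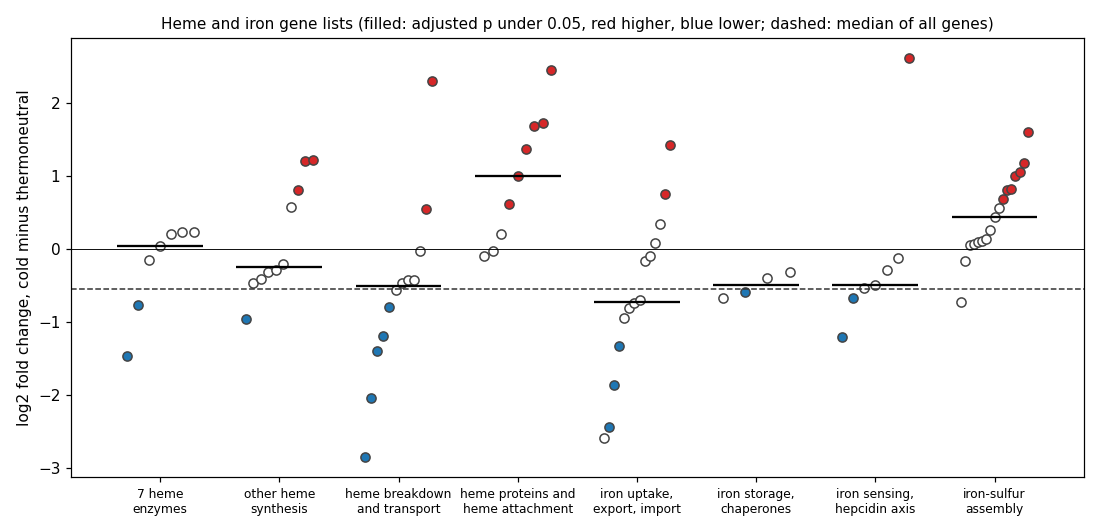
Log2 fold change, cold minus thermoneutral, of each tested gene of the 7 heme enzymes and 7 pathway lists on the deposited scale, with thick lines for list medians and a dashed line for the median of all genes at -0.54. Filled points passed the test (red higher, blue lower), and the list of heme proteins has the highest median, 1.01, against 0.04 for the 7 heme enzymes.

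The broader KEGG term for porphyrin metabolism, chosen after the table had been seen, had 40 genes in the table and 26 tested. Of these, 5 were called higher and 5 lower, beside 6.24% and 35.2% of all genes, at a median log2 fold change of -0.18. After centring 6 were higher and 1 lower, beside 10.3% and 5.35% of all genes. On the deposited scale the higher genes included Alas2, Blvra, Cox10 and Hccs, and the lower ones were Cpox, Ppox, Heph, Ears2 and Ugt1a6b. After centring Ears2 (-0.08) and Ugt1a6b (-0.76) were not called, like Cpox and Ppox.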

How the data were processed

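RNA-seq libraries (TruSeq) from iWAT of cold and thermoneutral mice, 3 samples each, were analysed from the deposited table. The authors removed genes with low counts and used TMM normalization. Bowtie 0.12.2, mm8 and mm10 appear in the submitters' processing notes with no roles given, and gene positions fit GRCm38. The deposited count columns hold a signal the authors had already scaled: in each sample 94.0% to 94.8% of values under 20 steps were whole multiples of 1 step (tolerance 0.02). They are not raw, so no count test was run. FPKM values, per the file headers, were normalized by the authors to length and library size.

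The 11650 genes at 1 FPKM or more in 3 or more samples were tested with limma 3.58.1 (R 4.3.3) on log2(scaled count + 1), with Benjamini-Hochberg adjustment over all of them and a threshold of 0.05. The row with the highest mean stood for a symbol on several rows (79 symbols). The method was tested on simulated data that held no general shift and no outlying library, unlike these data, so that test does not cover those features. Named genes were all members, up to 4 called genes with the smallest adjusted p per pathway list (or up to 2 with the highest mean), and the 3 closest profiles of Alas1, Fech, Tfrc and Fth1. Hmox1, Cox15, Slc40a1, Ftl1, Nfs1, B4galt3, Gpr15, the genes of the KEGG term and the marker genes were named after their values were seen. Members and lists were chosen with earlier results of these data known. In all, 18 alternative settings were run, 2 of them added after seeing the data. Python 3.11.15 and pandas 2.3.3 were used for tables. Flvcr1 and Flvcr2 were not analysed here, and list genes outside this rule are mostly counted only.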

Additional observations from a re-analysis of the deposited data

How the results depend on the processing

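Scaling and the choice of libraries decided the calls of the members. The count of members called higher (0) became 1 with median centring, 1 with TMM scaling, 1 without cold replicate 2 and thermoneutral replicate 1, and 3 with centring and without thermoneutral replicate 1, and it ran from 0 to 1 when 1 library was left out. The count called lower (2) became 0 with centring, with quantile normalization, with TMM scaling and with centring without thermoneutral replicate 1. It became 1 with no filter, 1 with FPKM of at least 5 (where Cpox was not tested), 1 with the replicate block and 1 without cold replicate 2 and thermoneutral replicate 1, and ran from 0 to 1 with 1 library left out. Over all genes, 727 higher became 1200 with centring, 1136 with TMM scaling and 1686 with centring without thermoneutral replicate 1 (373 to 933 with 1 library left out), and 4097 lower became 623, 724 and 1245, with 704 under quantile normalization (1061 to 5134). The 21 higher pathway genes ran from 11 to 22 and the 12 lower ones from 8 to 17 with 1 library left out, and the lower ones became 5 with centring, 7 with quantile normalization and 6 with TMM scaling. The cause was not tested. The sign turned for Alad with centring (0.38), quantile normalization (0.20), TMM scaling (0.33) and centring without thermoneutral replicate 1 (0.33). It turned for Fth1 without cold replicate 1 (-0.03), without thermoneutral replicate 1 (-0.17; the highest with 1 library left out was 0.29) and without cold replicate 2 and thermoneutral replicate 1 (-0.09), and for Pcbp1 (0.0034) and Aco1 (0.042) with centring without thermoneutral replicate 1. Of 33 named genes, 18 had the same call in all settings that gave a value, Alad and Fth1 among them as not called. The settings that left out both of these libraries, or centred without thermoneutral replicate 1, were chosen after seeing the data.

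No pairing by the replicate numbers shared by the groups was seen: the correlations of deviations were -0.004, 0.04 and 0.07 for replicates 1, 2 and 3. From 3 samples a group these values cannot exclude pairing. With the replicate block, 568 genes were called higher and 3140 lower, Ppox was called (adjusted p = 0.036, limma) and Cpox was not (0.094). The count test listed as an alternative was not run because the counts are not raw. With 3 samples a group, no exact test could pass 0.05, and Cpox rests on 62.8 to 137 scaled counts in the cold libraries.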
